A study of Mus musculus with 6 samples.

Results

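Interferon-inducible GTPases are enzymes of cell-autonomous immunity, and *Irf1* encodes a transcription factor that drives many of them. The genes described here are *Gbp2*, *Gbp3* and *Gbp6* of the guanylate-binding protein family, *Igtp*, *Irgm1*, *Irgm2* and *Iigp1* of the immunity-related GTPase family, and *Irf1*. They were taken by name, and every probe set annotated to one of them and to no other gene was used, which gave 11 probe sets for 8 genes out of 45037 probe sets and 18193 genes measured. The GFP-KLF2 transduced CTL carried a retrovirus encoding a fusion of GFP with KLF2, a transcription factor that T cells normally lose on activation. The evGFP transduced CTL carried the empty GFP vector. Both came from spleens of C57BL/6 mice, 8-12 weeks old, whose T cells have the transgenic P14 receptor for an LCMV peptide. Splenocytes received gp33-41 peptide for 48 hours, with the virus added at 18 hours, then spent a further 48 hours in IL-2 per the labels, and GFP positive cells were sorted for RNA. A legend of the study gives a longer time in IL-2 for these arrays, and which applies is not settled here. Affymetrix Mouse Genome 430 2.0 arrays were run on 3 biological replicates per group, numbered 1 to 3 in both.

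Interferon-gamma binds a receptor made of the *Ifngr1* and *Ifngr2* chains, and signals through the kinases JAK1 and JAK2 to gamma-activated sites in DNA, by which *Irf1* is induced. IRF1 binds interferon-stimulated response elements, which type I interferon reaches through STAT2 and IRF9, and the genes of both GTPase families carry such elements and respond to both interferons in mouse cells. Activated CD8 T cells make interferon-gamma themselves, so that these genes can answer a signal from the same culture.

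Promoter windows of 250 bases before to 50 after the annotated start, from RefSeq on GRCm38.p6, were searched for 6 of the 8 genes, with 8 windows in all. No window was matched to *Gbp6*, and *Iigp1* was left out of the search, so that the shares below do not cover these genes. The runs of 30 bases below are shown because they hold the letters by which interferon signals are known to reach such genes. Capitals mark the letters GAAANNGAA, the core of the response element, read on either strand, and TTCNNNGAA, the gamma-activated site, which reads the same on both strands.

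*Gbp2* response element core, chr3:142620595-142620624, plus strand: ctcttttagtTTCACTTTCactgtcttaag

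*Gbp3* response element cores, chr3:142559993-142560022, plus strand: acacagtTTCAGTTTCTATTTCccagatcc

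*Irgm1* response element cores, chr11:48871428-48871457, minus strand: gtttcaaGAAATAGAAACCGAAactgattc

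*Igtp* gamma-activated site and response element core, chr11:58199506-58199535, plus strand: gccatTTCTAGGAActGAAACTGAAagctg

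*Irgm2* gamma-activated site and response element core, chr11:58214897-58214926, plus strand: gccatTTCCAGGAActGAAACTGAAagctg

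*Irf1* gamma-activated site, chr11:53769914-53769943, plus strand: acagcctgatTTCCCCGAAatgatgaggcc

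A response element core was found in the windows of 5 of these 6 genes, *Irf1* being the exception, against 9.76% of all 27025 genes with a window. In *Gbp3* and *Irgm1* there were 2 matches that overlap each other, and in *Gbp2* the match ran from -58 to -50 relative to the start. The gamma-activated site was found in 3 of 6, *Irf1*, *Igtp* and *Irgm2*, against 9.55% of all genes. *Igtp* and *Irgm2* are next to each other on chromosome 11, and their runs are identical at 29 of 30 bases, the substitution being T9C, with the *Igtp* base first and positions counted from the left end of the run. Over the 270 bases of the windows that can be laid side by side without gaps the identity is 68.1%. A KLF type site, CCACACCC on either strand, was found in 1 of the 6 genes, *Gbp2*, against 4.09% of all genes, and it is shown because KLF2 is the transduced factor.

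*Gbp2* KLF type site, chr3:142620427-142620456, plus strand: tgatttcaaaaCCACACCCttttcacccta

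The shorter SP type site CCGCCC, to which KLF factors are also known to bind, was found in 4 of 6 against 38.2% of all genes. None of these matches is a measurement of binding, and with 6 genes the shares are a description.

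The arrays measured 1 log2 level per probe set, an average over the sorted cells, so that more RNA in every cell and more cells with the RNA cannot be told apart. Each array's median was 5.64 to 5.67 and its lower quartile 4.18 to 4.25. Over 6 T cell markers, not all of them particular to the CD8 lineage, linear intensity summed to 36372 to 37816 in GFP-KLF2 and 34532 to 36503 in evGFP arrays. Of these, *Cd8b1* rose by 0.45 (limma adjusted p = 0.0107) and passed with every single array left out, and the other 5 did not pass. Of 5 B cell markers 4 stayed under 6 on the log2 scale in every array, with sums of 284 to 416 in GFP-KLF2 and 283 to 310 in evGFP arrays, and the MHC class II sums overlapped as well (567 to 902 in GFP-KLF2, 733 to 1030 in evGFP). None of the 5 class II genes passed. *H2-DMa* alone passed with the replicate number fitted as a block, and was lower (log2 fold change -0.70, limma adjusted p = 0.15, 0.014 with the block). Sums of 8 myeloid and dendritic markers (419 to 449 in GFP-KLF2, 376 to 409 in evGFP), of 3 NK markers (124 to 157 in GFP-KLF2, 61 to 71 in evGFP) and of 4 CD4 T cell markers (373 to 409 in GFP-KLF2, 301 to 340 in evGFP) did not overlap between the groups, and their part in the results was not tested. Of the 3 NK markers *Tyrobp*, which encodes an adaptor of activating receptors and is also made by myeloid cells, rose by 1.48 (limma adjusted p = 0.00235), while *Ncr1* and *Klra8* did not pass (log2 fold change 0.13 and -0.05). Of the 4 CD4 T cell markers *Zbtb7b* rose by 0.45 (adjusted p = 0.0429, lost without 5 of the 6 single arrays) and *Cd4* itself did not pass (0.11). None of the 8 myeloid and dendritic markers passed, *Cd68* being nearest at 0.43 (adjusted p = 0.049), and it alone passed with the block (0.0252). *Klf2* itself is no check of the labels, because, as the study states, the construct lacks the sequence its probes read.

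All 11 probe sets were higher in GFP-KLF2 than in evGFP cells within each of the 3 replicate numbers, which held for 23.5% of all genes. Taking each gene by its brightest probe set, the log2 fold change ran from 0.42 for *Igtp* to 2.63 for *Iigp1*, with a median of 1.11 against -0.01 over all 18193 genes. At an adjusted p under 0.046 by limma, 2 of the 8 genes rose, *Gbp3* and *Irgm2*, against 6.22% of all genes called higher, and none fell, against 8.35% called lower. At an unadjusted p under 0.05 there were 7 higher and 0 lower, but the share of all genes at that threshold was not computed, so that these counts have no background. Same-numbered arrays deviated alike from their group means over all probe sets, which is no separate evidence that they are pairs. With the replicate number fitted as a block, which takes them as pairs, 7 of the 8 rose, all but *Igtp*, against 8.58% of all genes. Of the 11 probe sets, 2 passed without the block and 10 with it, where 4.76% and 6.73% of all probe sets were called higher. In 5 of the 8 genes, by the brightest probe set, every GFP-KLF2 array lay above every evGFP array, against 14.3% of all genes. *Gbp2* was among these, but its second probe set overlapped. The genes share the same 6 arrays, so that these counts are not 8 separate observations. Setting aside 1 array moved the count without the block from 2 to 6 without GFP-KLF2 replicate 3, to 1 without evGFP replicate 2 or 3, and to 0 without GFP-KLF2 replicate 1 or 2 or evGFP replicate 1. Over all probe sets, 1045 to 1949 were then called higher, against 2145 with all 6 arrays.

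**Figure D1:**
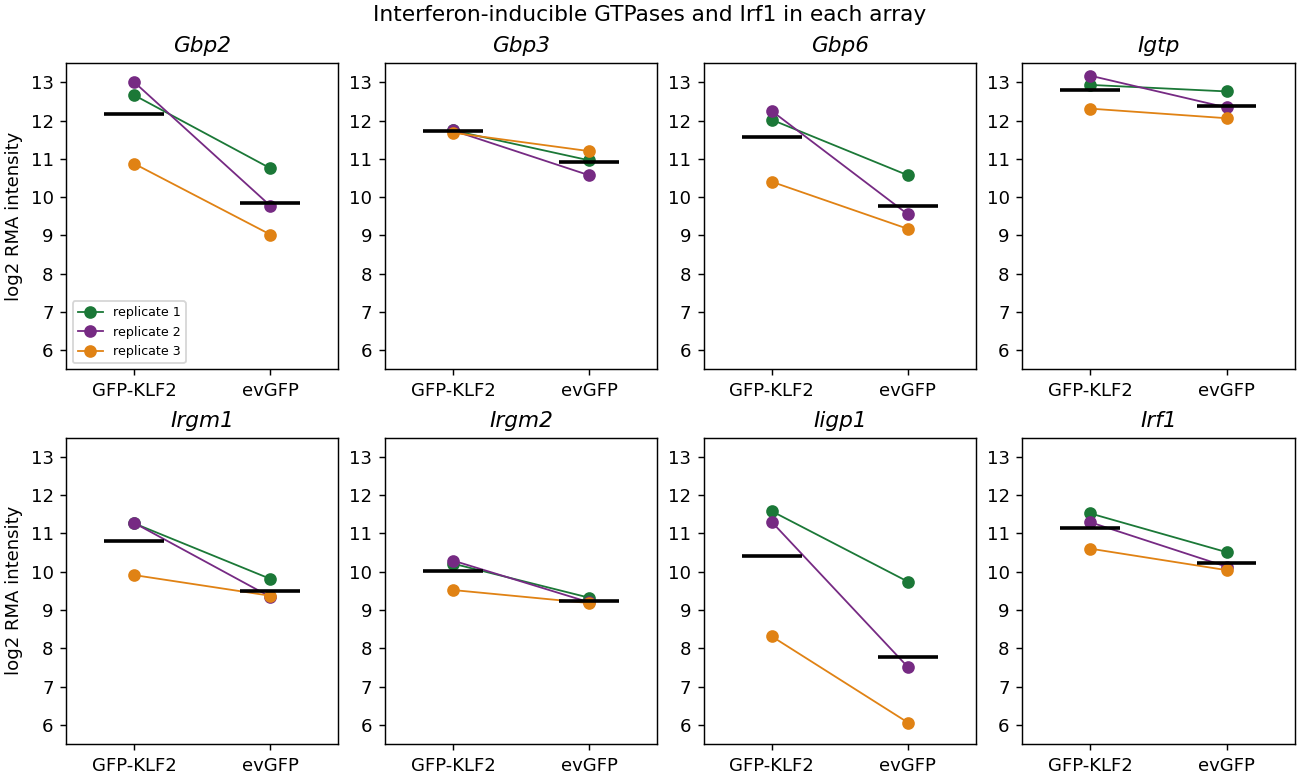
Log2 RMA intensity of the brightest probe set of each gene in GFP-KLF2 and evGFP arrays. Points are single arrays, lines join arrays with the same replicate number and black bars are group means over 3 arrays. Every line descends from GFP-KLF2 to evGFP, and replicate 3 is the lowest GFP-KLF2 array in all 8 panels.

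Guanylate-binding proteins assemble on the vacuoles of intracellular parasites and on bacteria, and GBP2 is among those that gather at the *Toxoplasma* vacuole in mouse cells. *Gbp2* (Entrez gene 14469, probe set 1435906_x_at) gave 12.66, 13.00 and 10.87 in GFP-KLF2 replicates 1, 2 and 3, against 10.75, 9.77 and 9.02 in evGFP replicates 1, 2 and 3. The groups did not overlap, but the lowest GFP-KLF2 array lay only 0.12 above the highest evGFP array. The means were 12.17 ± 1.14 in GFP-KLF2 and 9.85 ± 0.86 in evGFP cells (log2 intensity, SD, n = 3 each), a log2 fold change of 2.33 or 5.02-fold (95% confidence interval 0.91 to 3.75). This did not pass the test with 1 constant per group (limma adjusted p = 0.0492) and passed with the replicate block (adjusted p = 0.00368). The second probe set, 1418240_at, gave 2.28 (adjusted p = 0.0662, 0.00518 with the block). In this probe set the groups overlapped, GFP-KLF2 replicate 3 reading 10.12 and evGFP replicate 1 10.21. The suffix of the first probe set marks probes that may also bind related transcripts, and the second carries no such mark.

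*Gbp6* (100702), which lies beside *Gbp10* on chromosome 5, had 12.02, 12.25 and 10.40 in GFP-KLF2 arrays, against 10.57, 9.55 and 9.17 in evGFP arrays. Here the groups overlapped, since GFP-KLF2 replicate 3 was 0.16 under evGFP replicate 1. Its log2 fold change was 1.79 with a standard error of 0.53 (adjusted p = 0.0712), and it passed only with the block (standard error 0.27, adjusted p = 0.00828), and its second probe set, 1438676_at, gave 1.94 (0.0675 and 0.00852).

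*Gbp3* (55932) had 11.74, 11.74 and 11.68 in GFP-KLF2 arrays, against 10.96, 10.57 and 11.20 in evGFP arrays, a range of 0.07 in GFP-KLF2 cells, where that of *Gbp2* was 2.13. *Gbp3* rose by 0.81 on the log2 scale, 1.75-fold (standard error 0.15, 95% confidence interval 0.46 to 1.16, adjusted p = 0.0155, 0.0116 with the block). Without GFP-KLF2 replicate 1, GFP-KLF2 replicate 2 or evGFP replicate 1 it did not pass (adjusted p = 0.056, 0.0541 and 0.0491). Among evGFP arrays replicate 3 was the highest for *Gbp3*, whereas it was the lowest for *Gbp2* and *Gbp6*.

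The immunity-related GTPases divide into regulators, which sit on the cell's own membranes and hold other family members inactive, and effectors, which attack the vacuole of a parasite. *Irgm1*, *Irgm2* and *Igtp* encode regulators, and loss of *Irgm1* in mice also impairs the survival of activated CD4 T cells. *Irgm1* (15944) gave 11.26, 11.27 and 9.91 in GFP-KLF2 arrays, against 9.81, 9.34 and 9.37 in evGFP arrays, with no overlap but a gap of only 0.09. The log2 fold change was 1.30, 2.47-fold (standard error 0.35, adjusted p = 0.0556, 0.0161 with the block). *Irgm2* (54396) gave 10.21, 10.29 and 9.52 in GFP-KLF2 arrays, against 9.32, 9.20 and 9.18 in evGFP arrays. It rose by 0.78 on the log2 scale, 1.71-fold (standard error 0.19, 95% confidence interval 0.32 to 1.23, adjusted p = 0.0428, 0.0174 with the block), and its evGFP arrays lay within 0.14 of each other. The call of *Irgm2* rested on all arrays but one: it was lost without GFP-KLF2 replicate 1 or 2 or any evGFP array (adjusted p = 0.0973 to 0.133) and held without GFP-KLF2 replicate 3 (0.00259).

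*Igtp* (16145) is the neighbour of *Irgm2* and, in mice, is needed for resistance to *Toxoplasma*. Its levels of 12.93, 13.17 and 12.31 in GFP-KLF2 arrays overlapped with 12.76, 12.34 and 12.06 in evGFP arrays. The log2 fold change of 0.42 (95% confidence interval -0.16 to 0.99) did not pass in either fit (adjusted p = 0.373, 0.0961 with the block), and the differences within replicate numbers 1, 2 and 3 were 0.17, 0.83 and 0.25. Beside the nearly identical runs printed above, *Igtp* gave 1.33-fold and *Irgm2* 1.71-fold, and the difference between the genes was not tested.

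*Iigp1* (60440) encodes an effector and had both the largest difference of the 8 genes and the widest spread. Its values were 11.58, 11.30 and 8.31 in GFP-KLF2 arrays, against 9.74, 7.51 and 6.06 in evGFP arrays. On the linear scale this is 3066, 2530 and 318 in GFP-KLF2, against 856, 182 and 67 in evGFP arrays, so that GFP-KLF2 replicate 3 read lower than evGFP replicate 1, by 1.43 log2 units. The means were 10.40 ± 1.81 in GFP-KLF2 and 7.77 ± 1.85 in evGFP cells. The log2 fold change of 2.63, 6.18-fold, did not pass with 1 constant per group (standard error 1.09, adjusted p = 0.189) and passed with the block (standard error 0.34, adjusted p = 0.00556). The second probe set, 1419042_at, gave 2.64 (0.18 and 0.00568).

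*Irf1* (16362) had 11.52, 11.29 and 10.60 in GFP-KLF2 arrays, against 10.51, 10.13 and 10.04 in evGFP arrays. The groups did not overlap, by 0.09. The means were 11.14 ± 0.48 in GFP-KLF2 and 10.23 ± 0.25 in evGFP cells, a log2 fold change of 0.91, 1.88-fold (standard error 0.24, 95% confidence interval 0.36 to 1.46, adjusted p = 0.048). With the block it passed (standard error 0.12, adjusted p = 0.00628). *Irf1*, the regulator, differed by less than *Gbp2*, *Gbp6*, *Irgm1* and *Iigp1* in fold change, and by more than *Gbp3*, *Irgm2* and *Igtp*, and differences between these genes were not tested.

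**Figure D2:**
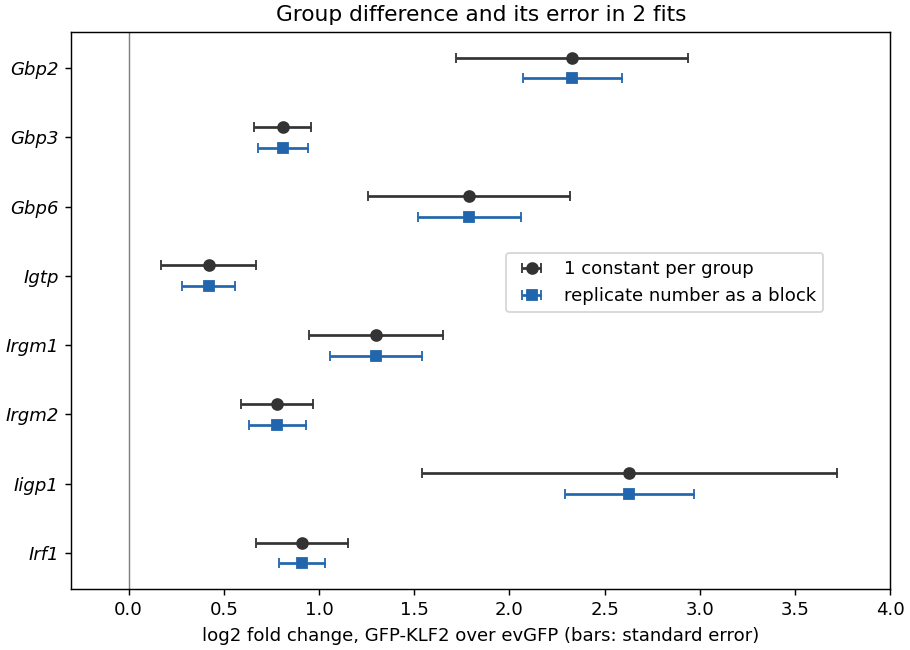
Log2 fold change of GFP-KLF2 over evGFP for the 8 genes, with its standard error in the fit with 1 constant per group (circles) and with the replicate block (squares). The fold changes are the same in both fits, while the standard error of *Iigp1* is 1.09 without and 0.34 with the block.

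The levels of most of these genes also varied with the replicate number. The standard error was smaller with the block for all 8 genes, but the share of all genes for which this holds was not computed. It also draws on the spread pooled over all probe sets, and for *Gbp3* it was 0.15 without and 0.13 with the block. The residual SD of *Iigp1* was 1.83 without and 0.73 with the block, that of *Gbp2* 1.01 and 0.55, and that of *Irf1* 0.38 and 0.22, whereas for *Gbp3* it was 0.23 and 0.25. Within groups, the SD of *Iigp1* was the fifth highest of 10511 genes with a mean of at least 6, where the median gene had 0.12, and *Gbp2*, *Gbp6* and *Irgm1* were exceeded by 0.419%, 0.59% and 1.98% of them. *Irf1* and *Igtp* were exceeded by 5.93% and 5.18%, and *Gbp3* by 17%.

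Averaged over the 7 GTPases, the log2 level was 11.77, 11.86 and 10.43 in GFP-KLF2 replicates 1, 2 and 3, against 10.56, 9.75 and 9.44 in evGFP replicates 1, 2 and 3. GFP-KLF2 replicate 3 thus read close to evGFP replicate 1. By the brightest probe sets it read below it for 3 of the 8 genes, *Gbp6*, *Igtp* and *Iigp1*. Replicate 3 was the lowest GFP-KLF2 array for all 8 genes, against 33.5% of all genes, and replicate 1 the highest evGFP array for 7 of 8, *Gbp3* being the exception, against 37.2%. The mean difference of the GTPases was 1.22, 2.10 and 0.99 in replicate numbers 1, 2 and 3, which is 2.32-fold, 4.3-fold and 1.98-fold. The difference was largest in replicate 2 for all 8 genes, against 30.9% of all genes, and smallest in replicate 3 for 6 of 8, against 30.8%.

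**Figure D3:**
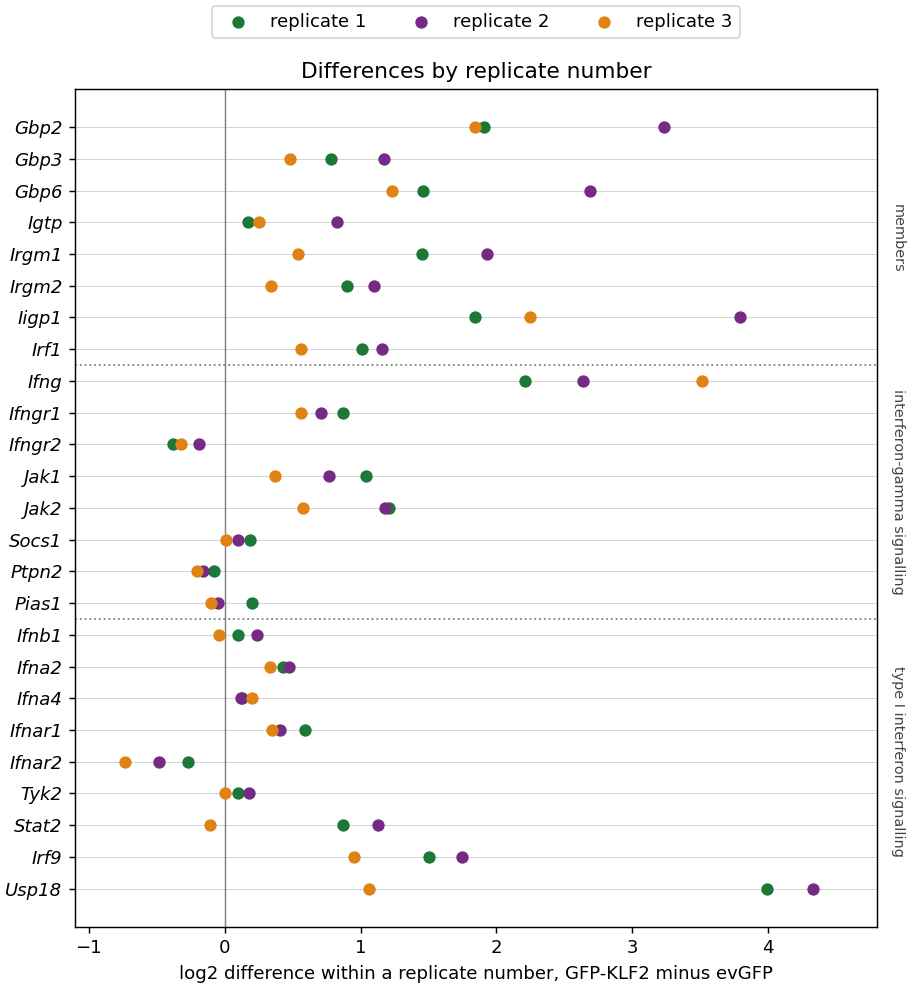
Log2 difference of GFP-KLF2 minus evGFP within each replicate number for the 8 genes (top), for genes of interferon-gamma signalling (middle) and of type I interferon signalling (bottom). All points of the 8 genes lie above 0, and the differences of *Ifng* are 2.21, 2.64 and 3.51 in replicates 1, 2 and 3.

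Upstream of these genes, interferon-gamma signalling had 8 measured genes, of which 4 rose, 1 fell and 3 did not pass, with a median log2 fold change of 0.41. For this and the lists that follow, the shares over all genes are the 6.22% called higher and 8.35% called lower given above, 8.58% higher with the block, and a median of -0.01. The lists were chosen with results known, and 1 lower of 8 or 9 genes is near the share over all genes. The ligand gene *Ifng* gave 9.24, 8.72 and 8.25 in GFP-KLF2 arrays, against 7.04, 6.08 and 4.74 in evGFP arrays, and rose by 2.79 on the log2 scale (adjusted p = 0.0171, 0.0557 to 0.0631 without GFP-KLF2 replicate 1, GFP-KLF2 replicate 2 or evGFP replicate 2). Replicate 3 was the lowest array of either group, as it was for *Gbp2*, *Gbp6*, *Igtp*, *Irgm2*, *Iigp1* and *Irf1*. *Ifng* differed most in replicate 3, by 3.51, where all 7 GTPases differed most in replicate 2, and least in replicate 1, by 2.21, as did *Igtp* and *Iigp1*. The receptor chain *Ifngr1* rose by 0.72 (adjusted p = 0.0124, 0.0549 without evGFP replicate 2) and the kinases *Jak1* and *Jak2* by 0.73 and 0.99 (0.0134 and 0.00474), of which *Jak1* did not pass without GFP-KLF2 replicate 1 or 2 or evGFP replicate 2 (0.047 to 0.0512). The second receptor chain *Ifngr2* fell by 0.29 on the log2 scale (adjusted p = 0.0431), but did not pass with the block (0.0522) or whichever single array was left out (0.0726 to 0.136). Of the inhibitors, *Socs1* had a log2 fold change of 0.10, *Ptpn2* of -0.15 and *Pias1* of 0.01, and none of them passed (adjusted p = 0.675, 0.25 and 0.949).

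Of 9 genes of type I interferon signalling 2 rose and 1 fell, and with the block 4 rose and 1 fell. *Irf9*, which completes the complex that binds the response element, rose by 1.40 (adjusted p = 0.0136, 0.0468 to 0.0552 without GFP-KLF2 replicate 1 or 2 or evGFP replicate 2). The receptor chain *Ifnar1* rose by 0.45 (adjusted p = 0.0329) and the other chain *Ifnar2* fell by 0.50 on the log2 scale (0.0401), each lost without 5 of the 6 single arrays. The ligand genes *Ifnb1*, *Ifna2* and *Ifna4* lay between 4.18 and 5.02 in all arrays, below the arrays' median. *Ifna2* had a log2 fold change of 0.41 without overlap (adjusted p = 0.0519) and was among those that passed with the block (0.0154), *Ifna4* had 0.15 without overlap (0.24) and *Ifnb1* 0.10 with overlap (0.612). *Usp18*, an inhibitor induced by type I interferon, had 9.76, 9.36 and 6.01 in GFP-KLF2 arrays, against 5.77, 5.03 and 4.95 in evGFP arrays (log2 fold change 3.13, adjusted p = 0.0649, 0.0172 with the block). Its difference was 3.99, 4.33 and 1.06 in replicates 1, 2 and 3, so that replicate 3 differed least here too.

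Among the other members of the IRF family and their partners, 4 of 10 rose and 1 fell, with a median log2 fold change of 0.26. *Irf7*, which amplifies the type I response, rose by 1.79 (adjusted p = 0.0445) with differences of 2.62, 2.11 and 0.64 in replicates 1, 2 and 3, *Irf9* as above, *Irf8* by 0.72 (0.0251) and *Irf2*, which can oppose IRF1 at the same sites, by 0.49 (0.0395). Each of *Irf7*, *Irf8* and *Irf2* did not pass without 5 of the 6 single arrays. *Irf2bp2*, which encodes a partner of IRF2, fell by 0.78 on the log2 scale (adjusted p = 0.0044) and passed with every single array left out.

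Of 9 other interferon-inducible GTPases and relatives measured, 2 rose, *Gbp8* (0.94, adjusted p = 0.0225) and *Gm12185* (0.57, 0.0296). With the block 5 rose, when *Gbp7* (0.82), *Gm4951* (1.46) and *Mx2* (0.42) joined them. The median log2 fold change was 0.57. *Gbp8* was lost without GFP-KLF2 replicate 1 or 2 or evGFP replicate 1 or 2 (adjusted p = 0.0482 to 0.0799) and *Gm12185* without any one of the arrays other than GFP-KLF2 replicate 3 (0.0525 to 0.0931). *Mx1* had differences of 1.43, 1.34 and -0.26 in replicates 1, 2 and 3 and did not pass in either fit. *Irgc1* and *Irgq*, relatives of these GTPases, had log2 fold changes of 0.04 and -0.05. The counts and the median include both, whether or not interferon induces them.

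Of 22 other genes known to respond to interferon-gamma 5 rose and 17 did not pass, with a median log2 fold change of 0.36, and 9 rose with the block. *Socs3*, an inhibitor of cytokine signalling, rose by 2.08 (adjusted p = 0.00127) and *Cd274*, which encodes PD-L1, by 1.97 (0.000636), and both passed with every single array left out. *Ido1* rose by 1.04 (adjusted p = 0.0313), with dim levels in evGFP arrays (4.09, 4.29 and 4.32), and *Parp9* by 0.95 (0.0239). *Ido1* did not pass without 4 of the 6 single arrays and *Parp9* without 5. The immunoproteasome subunit gene *Psmb8* (0.04), *Icam1* (0.03) and *Nos2* (-0.02) had the smallest differences of the list (adjusted p = 0.806, 0.918 and 0.959). *Socs3* differed by 2.00, 2.12 and 2.11 in replicates 1, 2 and 3, where *Irgm1* differed by 1.45, 1.93 and 0.54.

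The genes whose levels ran most like these were found by the root mean square difference between log2 profiles, each centred on its own mean over the 6 arrays, among 10503 genes. Closest to the mean profile of the 7 GTPases were *Nr4a3*, a nuclear receptor gene induced by T cell receptor signals (0.17 log2 units), *Trim30a* (0.21), the chemokine gene *Ccl5* (0.24) and *Ms4a6c* (0.25). Of the GTPases themselves *Irgm1* and *Gbp6* were at 0.21 and 0.23 from that mean, *Irgm2*, *Gbp2* and *Igtp* at 0.49, 0.52 and 0.57, *Gbp3* at 0.67 and *Iigp1* at 1.12. Closest to *Irf1* were *Dtx3l* (0.10) and *Parp9* (0.11), whose products work as a pair in ubiquitin and ADP-ribose transfer, then *9330175E14Rik* (0.13) and *Mndal* (0.13), of an interferon-inducible family. *Dtx3l*, for example, had 11.10, 10.90 and 10.17 in GFP-KLF2 arrays, against 10.01, 9.80 and 9.86 in evGFP arrays. All these genes share the same 6 arrays, and the measure favours genes with a change of like size.

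**Figure D4:**
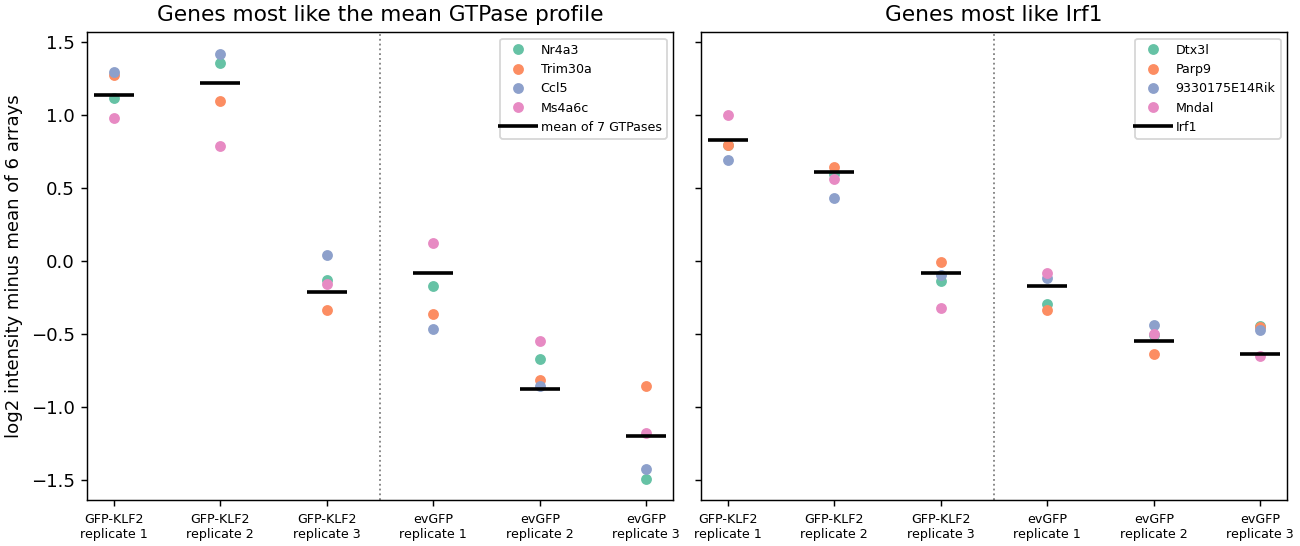
Log2 intensity minus the mean over the 6 arrays for the genes most like the mean of the 7 GTPases (left) and most like *Irf1* (right). The black bars are the mean GTPase profile, from 1.22 in GFP-KLF2 replicate 2 to -1.20 in evGFP replicate 3, and the *Irf1* profile, from 0.83 in GFP-KLF2 replicate 1 to -0.64 in evGFP replicate 3.

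One measure of RNA quality moved with the groups. For *Actb*, control probe sets at the 3' end read above those at the 5' end by 0.0773 to 0.0837 log2 units in GFP-KLF2 and by 0.111 to 0.121 in evGFP arrays, while the same measure for *Gapdh* overlapped, and its part in the differences above was not tested. The smallest 2-sided p of an exact permutation test on 3 against 3 arrays is 0.1, and the calls therefore use limma's pooled estimate of the spread.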

How the data were processed

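RNA of sorted GFP-KLF2 and evGFP transduced CTL was measured on 6 arrays. The authors deposited intensity values on a linear scale, made by RMA (background correction, quantile normalization and 1 summary per probe set, versions not given), and tested them with limma. Quantile normalization removes differences in overall signal between arrays. Raw array files were not used here. Log2 was taken, 64 control probe sets were removed and limma 3.58.1 in R 4.3.3 was fitted to 45037 probe sets with 1 constant per group and Benjamini-Hochberg adjustment. The methods print the threshold as 0.046% and as 2 sigma, and 0.046 was used. Each gene was taken by its brightest probe set among 34945 annotated to 1 gene. The replicate numbers are those of the labels, which do not say whether replicates came from separate mice, so that p-values measure the spread between these samples. How arrays deviated from their group mean correlated at 0.33, 0.44 and 0.47 between arrays of the same number and at -0.38 to 0.06 between others, over 45037 probe sets. Deviations cancel out within a group, so that positive values for same numbers pull the others down, and the contrast is no separate evidence of pairing. The numbers were taken as pairs in the differences by replicate number and in the block. Calls without the block, including those with single arrays left out, did not use the pairs. The fit was tested on simulated data.

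The members and gene lists were chosen with earlier results of these data known. All 8 members were to be named, with all genes of interferon-gamma signalling, up to 4 genes per list that passed, those with the largest change, and the 4 genes most like the GTPases and the 4 most like *Irf1*. *H2-DMa*, *Ncr1*, *Klra8*, *Cd4*, *Cd68*, *Ifnb1*, *Ifna2*, *Ifna4*, *Usp18*, *Gbp7*, *Gm4951*, *Mx1*, *Mx2*, *Irgc1*, *Irgq*, *Psmb8*, *Icam1*, *Nos2* and *Irf2* are not covered by this rule and were chosen after seeing their values. A search of protein sequences was planned and is not analysed here. Alternatives were other thresholds, the replicate block, removal of dim or cross-hybridising probe sets, median centring, cyclic loess, a trended and robust prior, weights for arrays, other probe set rules and leaving out arrays.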

Additional observations from a re-analysis of the deposited data

How the results depend on the processing

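The log2 fold change of each of the 8 genes stayed positive in all 20 alternatives that gave one, from 0.21 to 0.66 for *Igtp* and from 1.77 to 3.67 for *Iigp1*. Other thresholds, the replicate block, removal of dim probe sets and the trended and robust prior left these fold changes as they were, and are no check of direction. Nor is leaving out a replicate number in both groups, since all differences within replicate numbers were positive. Calls depended on the spread assumed. With the replicate block 7 of the 8 genes and 10 of their 11 probe sets rose, against 2 and 2 without it, with array weights 6 and 8, at an adjusted p under 0.05 4 and 4, with dim probe sets removed 4 and 4, and with a 2-fold threshold or an adjusted p under 0.00046 0 and 0. The calls over all probe sets moved too. From 2145 higher they went to 3033 with the block, 2780 with array weights and 2222 under 0.05. With dim probe sets removed they were 2277, out of a smaller set. Leaving out single arrays gave 0 to 6 genes and 0 to 8 probe sets, and leaving out both arrays of a replicate number, an alternative added after seeing the data, gave the same ranges, with 6 and 8 without replicate 3 and 0 and 0 without replicate 1 or 2. Without replicate 3 in either group *Gbp2* (adjusted p = 0.0112), *Gbp3* (0.0178), *Gbp6* (0.0191), *Irf1* (0.0167), *Irgm1* and *Irgm2* (0.00626 each) passed, and *Igtp* (0.14) and *Iigp1* (0.0597) did not.

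In the list of other interferon-inducible GTPases and relatives 2 rose, and 5 with the block. The number was 0 with a 2-fold threshold or at 0.00046, and 0 to 5 with single arrays left out. Other genes induced by interferon-gamma that rose numbered 5, and 9 with the block or array weights, 3 with a 2-fold threshold, 0 at 0.00046 and 2 to 10 with single arrays left out. Interferon-gamma signalling genes that rose numbered 4, and 1 with a 2-fold threshold, 0 at 0.00046 and 1 to 4 with single arrays left out. Over all probe sets 2145 were called higher and 2877 lower, 51 and 4 at 0.00046, 667 and 202 with a 2-fold threshold, and 2582 higher and 1866 lower with cyclic loess, which turned the balance towards higher calls. They numbered 1045 to 1949 higher and 1089 to 2078 lower with single arrays left out. Dim signal, below the array's median, limits what can be read of *Ido1*, *Gm12185* and *Mx2* in evGFP arrays and of the type I ligand genes. The same holds for *Gm4951* and *Usp18* in evGFP replicates 2 and 3.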
